A study of Mus musculus with 3 samples.

Results

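Cycling conventional type 2 dendritic cells (cDC2) of the mouse spleen are described here from 1 droplet capture of dendritic cells (DC). A cell was taken as a cycling cDC2 when its barcode held 4 or more UMIs (unique molecular identifiers, each standing for 1 captured RNA molecule) of Clec4a4, Dtx1, Ffar2, Ppp1r14a, Cyp4f16 and Sirpa together, 20 or more of H2-Ab1, and 3 or more of Mki67, Top2a and Pclaf together. Barcodes with any Xcr1 or Clec9a UMI, any Slc4a1 or Alas2 UMI, more than 1 Siglech UMI, more than 1 UMI of Ccr7 and Fscn1, or 10 or more Lyz2 UMIs were left out, which removes cDC1, red cells, plasmacytoid DC, mature DC and monocytes. Of 38717 barcodes, 36904 held at least 500 genes with no more than 10% of UMIs mitochondrial, and 21547 of these carried 1 hashtag whose count was 5 times that of the next or more. Among those, 2593 were cDC2 and 556 were cycling cDC2, which is 2.58% of the barcodes with a single hashtag. The other 2037 are called non-cycling cDC2.

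All cells came from C57BL/6 spleens after 2 days of treatment. The hashtag names give 2 leukemia-bearing samples given panobinostat (a histone deacetylase inhibitor), 1 wild-type (WT) sample given panobinostat, 2 leukemia-bearing samples given vehicle and 1 WT sample given vehicle. The treatment codes in those names, LBH and D5W, were read as panobinostat and its vehicle. DC were enriched from spleen by density, by sorting away GFP-positive cells and by depleting other cells with magnets, and were then stained with antibody tags for CD11c and Siglec-H, so a difference in how well a sample was enriched enters every share of cells below. Whether each of the 6 hashed samples is 1 animal is not given in the labels, and a p-value over them refers to the spread between these 6 samples. Tests made gene by gene also borrow spread from other genes.

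cDC2 are antigen-presenting cells that take up antigen in the splenic marginal zone and bridging channels and present it on MHC class II, mainly to CD4+ T cells, and they depend on Notch2 signalling and on the transcription factor Irf4. They arise from committed precursors that leave the bone marrow, and these precursors and their progeny keep dividing in the spleen under Flt3 ligand. A dividing cell first makes the licensing helicase (Mcm genes), nucleotide synthesis enzymes (Tyms, Rrm2) and, during S phase, histones, and then the mitotic genes (Cdk1, cyclin B, kinesins, centromere proteins). Mki67 coats mitotic chromosomes, Top2a untangles sister DNA and Pclaf binds the replication clamp PCNA.

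The promoters of the 3 genes that set the cycling threshold are shown because they carry the sequence elements of the gene groups that set these cells apart below. Each run is the RefSeq GRCm38.p6 sequence from 250 bases before to 50 bases after the gene's start, read 5′ to 3′ on the gene's strand. Pclaf lies at chr9:65890073-65890372 on the plus strand, Top2a at chr11:99024140-99024439 on the minus strand and Mki67 at chr7:135716330-135716629 on the minus strand. Capitals mark the CCAAT box, the cell cycle homology region in its forms TTTGAA and TTCGAA, and the E2F site TTTCCCGC, on either strand; the marked runs do not overlap one another.

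Pclaf: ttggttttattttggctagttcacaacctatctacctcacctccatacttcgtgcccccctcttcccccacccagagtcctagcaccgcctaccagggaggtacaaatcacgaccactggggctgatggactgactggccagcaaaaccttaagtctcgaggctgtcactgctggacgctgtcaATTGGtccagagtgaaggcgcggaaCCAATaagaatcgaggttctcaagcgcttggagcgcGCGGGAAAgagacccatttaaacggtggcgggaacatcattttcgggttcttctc

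Top2a: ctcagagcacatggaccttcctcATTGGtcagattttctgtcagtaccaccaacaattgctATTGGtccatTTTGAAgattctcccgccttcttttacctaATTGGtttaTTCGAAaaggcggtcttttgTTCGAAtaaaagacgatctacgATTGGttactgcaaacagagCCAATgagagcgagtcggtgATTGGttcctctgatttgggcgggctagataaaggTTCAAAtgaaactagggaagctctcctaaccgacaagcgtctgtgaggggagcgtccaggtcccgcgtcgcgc

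Mki67: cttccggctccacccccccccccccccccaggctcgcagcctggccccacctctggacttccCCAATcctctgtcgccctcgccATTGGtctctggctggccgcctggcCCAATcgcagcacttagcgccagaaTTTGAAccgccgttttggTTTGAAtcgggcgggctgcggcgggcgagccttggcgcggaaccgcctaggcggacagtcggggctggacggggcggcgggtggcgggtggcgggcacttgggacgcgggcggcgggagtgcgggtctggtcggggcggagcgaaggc

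The Pclaf promoter held 2 CCAAT boxes and 1 TTTCCCGC, the Top2a promoter 6 CCAAT boxes, 2 TTTGAA and 2 TTCGAA, and the Mki67 promoter 3 CCAAT boxes and 2 TTTGAA. Of 51 mitosis and G2/M genes with a promoter in the RefSeq table, 36 (70.59%) held TTTGAA, against 6 of 41 DNA replication and S phase genes (14.63%) and 20.23% of 27025 genes in all. The second form, TTCGAA, was in 5.882% of G2/M, 4.878% of S phase and 1.802% of all promoters. CCAAT was in 72.55% of the G2/M promoters, 60.98% of the S phase promoters and 41.06% of all. TTTCCCGC was in 8 S phase promoters (19.51%), 2 G2/M promoters (3.922%) and 1.236% of all. A match is a description of the letters and not a site shown to be in use.

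The matrix held 31053 genes. The 556 cycling cDC2 numbered 81 and 101 in leukemia panobinostat samples 1 and 2, 82 in WT panobinostat, 43 and 53 in leukemia vehicle samples 1 and 2, and 196 in WT vehicle. Summed over their cells, the samples held 483319 to 2336997 gene UMIs, 6441575 in all, and leukemia vehicle was the shallowest group. The median cell had 9386 UMIs and 2637.5 genes, and the samples' medians lay between 9146.5 and 9580 UMIs. Levels are given as CPM, the UMIs of a gene in 1000000 of the summed gene UMIs of the cells named. Levels of 6 T and NK cell markers summed to 0 to 3.31 CPM, with 4 of the 6 genes at 0 in every sample, and monocyte and macrophage markers to 60.0 to 105 CPM.

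The label was checked first, and 101 of the 556 cells (18.2%) went against it in part. These 101 cells held 10 or more UMIs of 10 genes of erythroid, mast cell or early progenitors (among them Car2, Kit, Cd34, Ms4a2, Hdc, Cpa3, Gata2, Mpo and Elane), a limit chosen after the data were seen. They were 9 and 22 cells in the leukemia panobinostat samples, 11 in WT panobinostat, 9 and 5 in leukemia vehicle and 45 in WT vehicle, and they carried 36.0% of all UMIs of the cycling cDC2. Klf1, an erythroid transcription factor, stood at 85.9 CPM in the 101 cells against 0.242 CPM in the other 455. Epor, the erythropoietin receptor, stood at 39.3 against 0.970 CPM; neither gene was used to pick the 101 cells. Of the 10 genes that picked them, Car2 stood at 1477 against 62.1 CPM and Ms4a2, a chain of the mast cell and basophil IgE receptor, at 256 against 3.15 CPM, which describes the selection. Kit was lower in the 101 cells, at 64.3 against 90.9 CPM, and Cd34, Cpa3, Mpo and Elane lay between 0 and 1.73 CPM in both. The same cells held DC genes at lower levels, with H2-Ab1 at 1833 against 5469 CPM, Cst3 at 938 against 2095 CPM and Flt3 at 21.2 against 52.4 CPM.

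Cells with the progenitor genes were larger libraries, with a median of 22230 UMIs against 8811 in the other 455, and 34.7% of them had a doublet score in the top 10% of all scored barcodes, against 0.659% of the 455. Their median CD11c antibody count was 2529, against 3145 in the 455. Their UMI number for the 10 genes was set apart from the rest: 116 cells had 0, 312 had 1 to 4, 27 had 5 to 9, 8 had 10 to 19 and 93 had 20 or more. Cells of this kind were also 79 of 383 cycling cDC1 (20.6%), 23 of 2037 non-cycling cDC2 (1.13%) and 21 of 1701 non-cycling cDC1 (1.23%). The summed level of erythroid markers in the cycling cDC2 ranged from 1478 to 5262 CPM over the 6 samples with these cells and from 581 to 836 CPM without them. Whether they are pairs of cells in 1 droplet or single cells with both sets of RNA was not tested. The fits and the comparisons of cell sets were therefore made for all 556 cells and for the 455. Gene levels below are those of the 455 cells unless stated, and the values of all 556 stand beside list counts that differ between them by over 1.5 times.

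**Figure D1:**
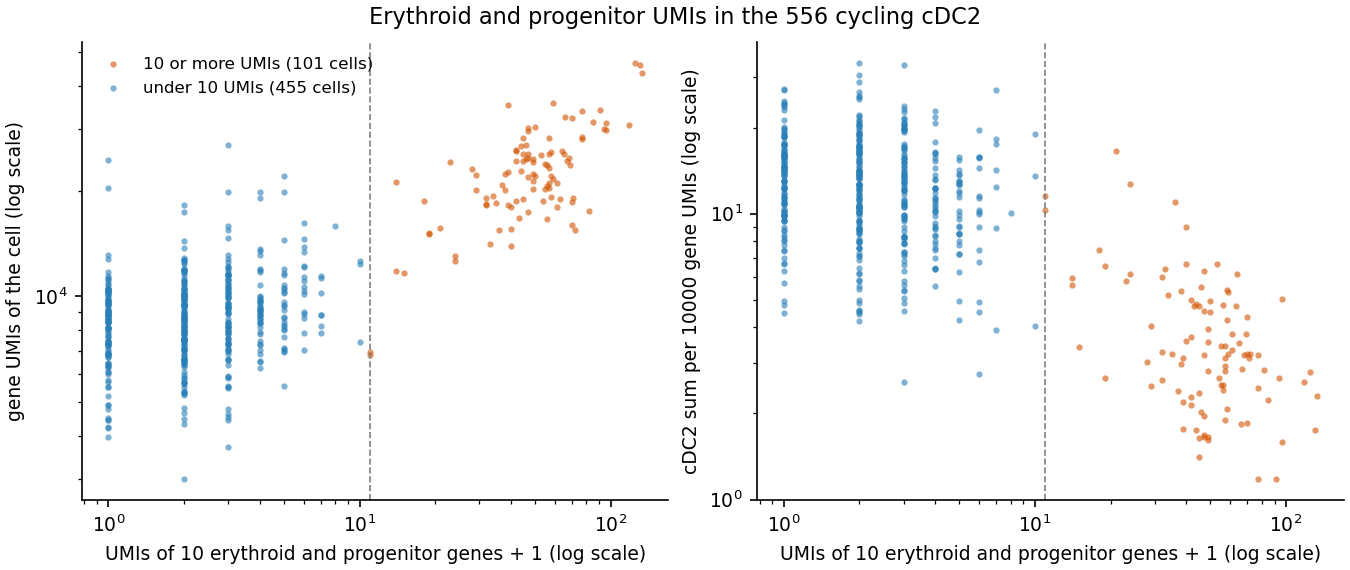
Each point is 1 of the 556 cycling cDC2; the x axis is the UMIs of the 10 progenitor genes plus 1, and the y axis the gene UMIs of the cell on the left and the UMIs of the summed cDC2 rule genes, scaled to the cell's gene UMIs, on the right, all on log scales. The 101 cells with 10 or more progenitor UMIs (orange) lie right of the dashed line, mostly at higher gene UMIs and lower cDC2 levels than the 455 others (blue).

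The 5 genes that name the cells were measured in every sample of the 455 cells. Pclaf stood at 1007, 1128 and 986 CPM with panobinostat and at 1257, 918 and 1146 CPM with vehicle, and Top2a at 784, 832 and 660 CPM with panobinostat and at 887, 742 and 768 CPM with vehicle. Ffar2, a receptor for short-chain fatty acids, stood at 261, 273 and 265 CPM with panobinostat and at 304, 376 and 292 CPM with vehicle. Ppp1r14a, an inhibitor of myosin phosphatase, stood at 443, 476 and 524 CPM with panobinostat and at 450, 453 and 440 CPM with vehicle, and Pglyrp1, which binds bacterial peptidoglycan, at 272, 271 and 262 CPM with panobinostat and at 272, 337 and 247 CPM with vehicle. Every sample held all 5 genes, and the treatments overlapped for Pclaf, Top2a, Ppp1r14a and Pglyrp1. Ffar2, a gene of the rule, had its 3 vehicle values above its 3 panobinostat values. It was not among the genes called between treatments below, so no treatment effect on it is claimed.

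Ffar2, Ppp1r14a and Pglyrp1 marked cDC2 whether or not the cells were cycling. Their means ± SD over the 6 samples in the 455 cells were 295 ± 42.9, 464 ± 31.8 and 277 ± 30.8 CPM. In 2014 non-cycling cDC2, likewise without cells of 10 or more progenitor UMIs, they were 278 ± 42.7, 433 ± 52.4 and 245 ± 26.5 CPM. In 304 cycling cDC1 they were 7.52 ± 3.08, 18.3 ± 3.17 and 20.4 ± 3.24 CPM. Pclaf and Top2a marked the division instead, with 1074 ± 125 and 779 ± 77.7 CPM in cycling cDC2 against 10.5 ± 2.98 and 19.96 ± 2.89 CPM in non-cycling cDC2. Ffar2, Ppp1r14a, Pclaf and Top2a were part of the rule, so these values describe the selection; Pglyrp1 was not.

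The threshold separated most cells widely. Of the 2593 cDC2, 1531 had no UMI of Mki67, Top2a or Pclaf and 432 had 8 or more. Just inside the threshold lay 44 cells with 3 such UMIs, and just outside it 90 cells with 2. Rrm2, the small subunit of ribonucleotide reductase, stood at 28.9 CPM just inside and 12.1 CPM just outside, Cdk1 at 55.3 and 16.6 CPM, and Birc5, which encodes survivin of the chromosomal passenger complex, at 69.8 and 75.6 CPM. The smallest allowed cDC2 sum, 4 UMIs, was held by 31 members, and 26 cells that met every other condition had 3.

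Beside non-cycling cDC2 of the same samples, cycling cDC2 held higher levels of nearly all replication and mitosis genes and lower levels of Ccl5, Cd209a and Cd4. Among 5328 genes of 20 CPM or more, 550 (10.3%) were higher in cycling cDC2 by 1.5-fold or more in all 6 samples and 46 (0.863%) were lower, counted in the 455 and 2014 cells. With the progenitor-marker cells kept, 675 of 5521 (12.2%) were higher and 116 (2.1%) lower. The 2 sets were split by 3 genes of the cell cycle, so these counts describe them and carry no test.

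Of 48 DNA replication and S phase genes at 20 CPM or more, 44 were higher in all 6 samples and none lower, with a median log2 ratio of 2.19 against 0.09 for all genes. Mcm5, a subunit of the licensing helicase, averaged 132 ± 19.7 CPM in cycling cDC2 and 32.0 ± 6.99 CPM in non-cycling cDC2. Rrm2 averaged 251 ± 38.3 against 4.22 ± 1.54 CPM, and Tyms, thymidylate synthase, 201 ± 26.5 against 13.3 ± 3.83 CPM (SD, n = 6 each).

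Of 58 mitosis and G2/M genes, 57 were higher and none lower, with a median log2 ratio of 4.55. Cdk1, the kinase that drives entry into mitosis, averaged 191 ± 27.3 CPM in cycling cDC2 and 6.92 ± 3.12 CPM in non-cycling cDC2. Birc5 averaged 539 ± 82.1 against 18.9 ± 6.27 CPM, and Nusap1, a spindle protein, 297 ± 45.5 against 4.65 ± 2.37 CPM. Outside the rule genes, Aspm, a spindle pole protein, and Pbk, a mitotic kinase, had the largest ratios among genes of 50 CPM or more, with 58.7 ± 13.8 and 75.2 ± 16.4 CPM in cycling cDC2 against 0.429 ± 0.521 and 0.584 ± 0.550 CPM in non-cycling cDC2. Kif11, a motor that pushes spindle poles apart, averaged 145 ± 14.01 against 2.37 ± 1.09 CPM, and Esco2, which acetylates cohesin in S phase, 121 ± 11.6 against 1.92 ± 0.607 CPM.

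Cyclins differed in direction. Cyclin A2 (Ccna2) averaged 144 ± 22.8 CPM in cycling and 2.75 ± 1.83 CPM in non-cycling cDC2, and cyclin E1 (Ccne1) 41.8 ± 8.34 against 1.65 ± 1.15 CPM. The G1 cyclins ran the other way: Ccnd2 was lower in all 6 samples, at 19.1 ± 6.58 against 70.3 ± 26.5 CPM, and Ccnd1 averaged 773 ± 76.4 against 1040 ± 108 CPM, short of the 1.5-fold limit. Among inhibitors, Cdkn2c, which binds Cdk4 and Cdk6, averaged 55.0 ± 11.5 against 11.2 ± 2.50 CPM, and Cdkn1b (p27) 102 ± 10.5 against 131 ± 23.3 CPM. Of 30 genes of this list 17 were higher and Ccnd2 alone was lower.

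Of 19 clustered histone genes 15 were higher and none lower. Hist1h3c averaged 86.3 ± 33.4 CPM in cycling cDC2 and 1.28 ± 0.716 CPM in non-cycling cDC2, and Hist1h2ae 574 ± 198 against 37.1 ± 7.90 CPM. Most messages of these genes have no poly(A) tail, so a 3′ assay primed on poly(A) sees part of them, and the genes are near-identical copies whose reads can be split or dropped in counting. Of the deacetylases that panobinostat inhibits, Hdac1 was higher in all 6 samples, at 120 ± 10.6 against 62.1 ± 4.92 CPM, and Hdac2 averaged 56.2 ± 7.21 against 32.9 ± 4.81 CPM. Brca1, which acts in DNA repair at replication forks, averaged 36.5 CPM in cycling cDC2 and 2.06 CPM in non-cycling cDC2, and 7 of 20 genes of the damage and apoptosis list passed the limit.

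None of 22 transcription factors of DC lineages and none of 9 Notch pathway genes differed by 1.5-fold or more in all 6 samples, in either direction. Irf4 averaged 13.9 ± 5.93 CPM in cycling cDC2 and 22.1 ± 3.04 CPM in non-cycling cDC2, Zbtb46 39.4 ± 8.04 against 54.5 ± 5.38 CPM, and Spi1 (PU.1) 518 ± 37.6 against 555 ± 22.8 CPM. Flt3, the receptor for the DC growth factor, averaged 53.8 ± 8.32 against 69.4 ± 13.5 CPM. The 12 MHC class II genes had a median log2 ratio of -0.50, and H2-Eb2 alone passed the limit, at 30.5 against 66.3 CPM; in all 556 cells 4 of the 12 were lower, with a median of -0.80.

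Among the 46 genes lower in cycling cDC2 were Ccl5, Il1b, Cd209a and Cd4. Ccl5, a chemokine for T cells, averaged 228 ± 59.3 CPM in cycling and 701 ± 255 CPM in non-cycling cDC2, and Il1b 73.6 ± 13.5 against 170 ± 33.3 CPM. Cd209a, a C-type lectin of cDC2 related to DC-SIGN, averaged 28.9 ± 11.6 against 94.1 ± 27.3 CPM, and Cd4, which marks most splenic cDC2, 26.2 ± 7.59 against 67.6 ± 8.77 CPM. Slfn5, a member of the interferon-inducible Schlafen family, had the largest ratio in this direction, at 8.86 ± 5.30 against 60.8 ± 20.04 CPM. Of 19 immediate early genes 4 were lower: Junb, Zfp36, Atf3 and Nfkbiz, at 690, 624, 259 and 57.1 CPM in cycling cDC2 against 1105, 985, 500 and 114 CPM in non-cycling cDC2. Without leukemia vehicle 2, and with the progenitor-marker cells kept, 201 genes in place of 116 counted as lower.

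**Figure D2:**
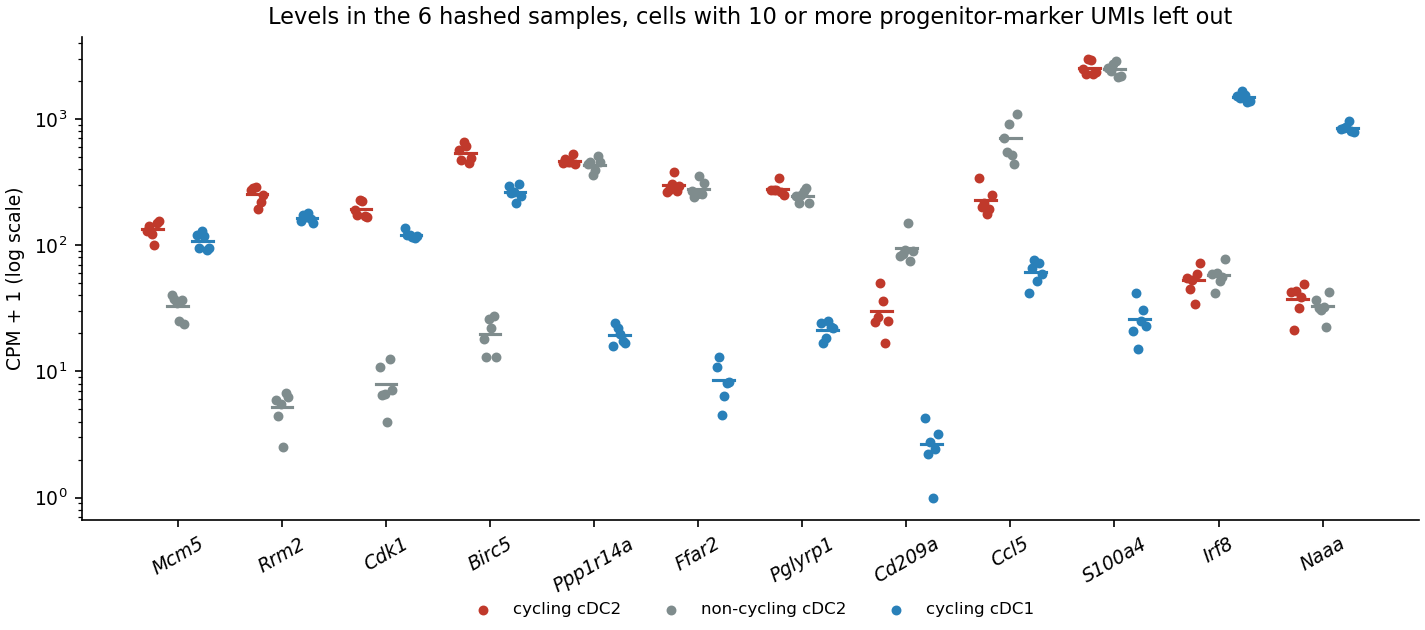
CPM plus 1 on a log axis for 12 genes in 455 cycling cDC2 (red), 2014 non-cycling cDC2 (grey) and 304 cycling cDC1 (blue), all without cells of 10 or more progenitor-marker UMIs; each point is 1 of 6 hashed samples and each bar their mean. Mcm5, Rrm2, Cdk1 and Birc5 separate cycling from non-cycling cells, Ppp1r14a, Ffar2, Pglyrp1 and S100a4 separate cDC2 from cDC1, and Irf8 and Naaa are high in cDC1.

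Beside cycling cDC1, picked by the same 3 cycling genes and by Xcr1 and Clec9a, the cycling cDC2 held higher levels of the cDC2 markers. Of 5404 genes of 20 CPM or more, 630 (11.7%) were higher in cycling cDC2 by 1.5-fold or more in all 6 samples and 296 (5.48%) were lower, against 417 (7.59%) and 250 (4.55%) of 5494 with the progenitor-marker cells kept. All 12 cDC2 markers at that level were higher, including all 6 that the rule did not use, and 8 of 10 cDC1 markers were lower, including 6 of the 8 that the rule did not use. S100a4, a calcium-binding protein, averaged 2543 ± 331 CPM in cycling cDC2 and 25.0 ± 9.39 CPM in cycling cDC1, and Cd7 357 ± 66.5 against 7.47 ± 4.77 CPM. Ltb, which encodes lymphotoxin beta, averaged 544 ± 46.3 against 14.3 ± 5.09 CPM, and Ifitm1, an interferon-induced membrane protein, 337 ± 151 against 2.47 ± 1.47 CPM. In the other direction, Irf8, the factor that cDC1 require, averaged 51.9 ± 12.9 CPM in cycling cDC2 and 1481 ± 105 CPM in cycling cDC1, and Tlr3, a sensor of double-stranded RNA, 4.66 ± 2.16 against 130 ± 34.8 CPM.

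Beyond the markers, the 2 kinds of cycling DC differed in several fixed groups. Of 19 endoplasmic reticulum folding genes 9 were lower in cycling cDC2 and none higher, among them Hspa5 (BiP) at 463 against 862 CPM and Hsp90b1 at 363 against 860 CPM; in all 556 cells 5 of 20 were lower. Of 17 MHC class I genes 6 were lower and none higher, among them the peptide transporter Tap1 at 111 against 218 CPM and the immunoproteasome subunit Psmb9 at 435 against 947 CPM. Regulators with higher levels in cycling cDC2 included Runx3, at 240 against 45.3 CPM, Relb, at 194 against 25.6 CPM, and Zeb2, at 78.6 against 3.73 CPM. Higher in cycling cDC2 were 2 of 48 S phase genes and 26 of 58 G2/M genes, with median log2 ratios of 0.46 and 1.06 against 0.24 for all genes. In all 556 cells the counts were 0 of 48 and 9 of 56, with medians of 0.42 and 0.70 against 0.19 for all genes, so the G2/M count depends on a limit that was chosen after the data were seen. Ccnd1 averaged 773 ± 76.4 CPM in cycling cDC2 and 185 ± 37.6 CPM in cycling cDC1. In the cells without progenitor markers the median cycling cDC1 had 16157.5 UMIs, against 8811 in cycling cDC2. With the progenitor-marker cells kept the medians were 17252 and 9386 UMIs. What part depth had in these ratios was not tested.

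The antibody tags took no part in the rule. CD11c, the integrin carried by all DC, had median counts per cell of 3021, 2986 and 3289.5 with panobinostat and 2936, 3770 and 3020.5 with vehicle in cycling cDC2. In non-cycling cDC2 the medians were 2185, 2157.5 and 2422.5 with panobinostat and 2227, 2251 and 2302 with vehicle. All 6 medians of cycling cells lay above all 6 of non-cycling cells. The ratio was 1.40 on average, with a range of 1.31 to 1.67, higher in 6 of 6 samples (two-sided exact sign-flip permutation test, p = 0.03125, the smallest 6 pairs can give; 0.125 adjusted by Benjamini-Hochberg over the 4 antibody comparisons made). Per gene UMI of the cell the ratio was 0.804 and lower in 6 of 6 samples: cycling cells held more RNA as well, with a median of 9386 against 5507 gene UMIs.

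Siglec-H, a lectin of plasmacytoid DC, served as the tag that cDC2 lack. Its count in cycling over non-cycling cDC2 was 1.03 (0.990 to 1.07 over the samples, higher in 5 of 6; exact sign-flip permutation p = 0.0625, adjusted 0.125). Against cycling cDC1, cycling cDC2 had a CD11c ratio of 1.03, higher in 2 of 6 samples (exact p = 0.75, adjusted 0.75), and a Siglec-H ratio of 0.990, also higher in 2 of 6 (exact p = 0.34375, adjusted 0.458). Between treatments, the median CD11c count of cycling cDC2 had a panobinostat-over-vehicle ratio of 0.961 (exact permutation p = 0.9) and Siglec-H one of 0.979 (p = 0.6), in a design of 3 against 3 whose smallest p is 0.1.

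The share of cDC2 in cycle differed between treatments by less than the spread between samples. Cycling cells were 17.6% (95% Clopper-Pearson interval 14.2 to 21.4), 23.2% (19.3 to 27.5) and 26.1% (21.3 to 31.3) of the cDC2 in leukemia panobinostat 1 and 2 and WT panobinostat. They were 21.0% (15.6 to 27.2), 31.7% (24.8 to 39.4) and 19.4% (17.0 to 21.96) in leukemia vehicle 1 and 2 and WT vehicle. The treatments overlapped, and the panobinostat-over-vehicle ratio was 0.938 (two-sided exact permutation test of the log share, p = 0.8; smallest possible 0.1). The ratio was 0.774 within leukemia and 1.35 within WT. It was 1.05 without leukemia panobinostat 1 and 1.09 without leukemia vehicle 2, so its direction rests on single samples. Without the progenitor-marker cells the shares were 16.1, 19.4 and 23.7% with panobinostat and 17.5, 29.8 and 15.7% with vehicle, with a ratio of 0.966 (exact p = 0.9). The intervals cover counting error alone.

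Among the cycling cDC2, the share of cells led by G2/M genes was lower in each panobinostat sample than in each vehicle sample. Each cell was thinned to 4000 UMIs and called G2/M-leading when it then held more UMIs of the 60 G2/M genes than of the 50 S phase genes. G2/M-leading cells were 61.7% (50.3 to 72.3), 52.5% (42.3 to 62.5) and 59.3% (47.8 to 70.1) in the 3 panobinostat samples, against 73.8% (58.0 to 86.1), 69.8% (55.7 to 81.7) and 66.2% (59.0 to 72.8) in the 3 vehicle samples. The groups did not overlap, and the difference was -12.1 percentage points (two-sided exact permutation test, p = 0.1, the smallest that 3 against 3 allows). It was -14.7 points within leukemia and -6.89 points within WT, -11.9 points in the 455 cells (exact permutation p = 0.1) and -6.70 points with no thinning. In the thinned cells the median UMIs of the G2/M genes were 38, 30 and 32 with panobinostat and 47, 52 and 34 with vehicle, and those of the S phase genes 18, 21 and 21 with panobinostat and 18.5, 15 and 20 with vehicle. The G2/M medians overlapped through leukemia panobinostat 1 and WT vehicle.

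**Figure D3:**
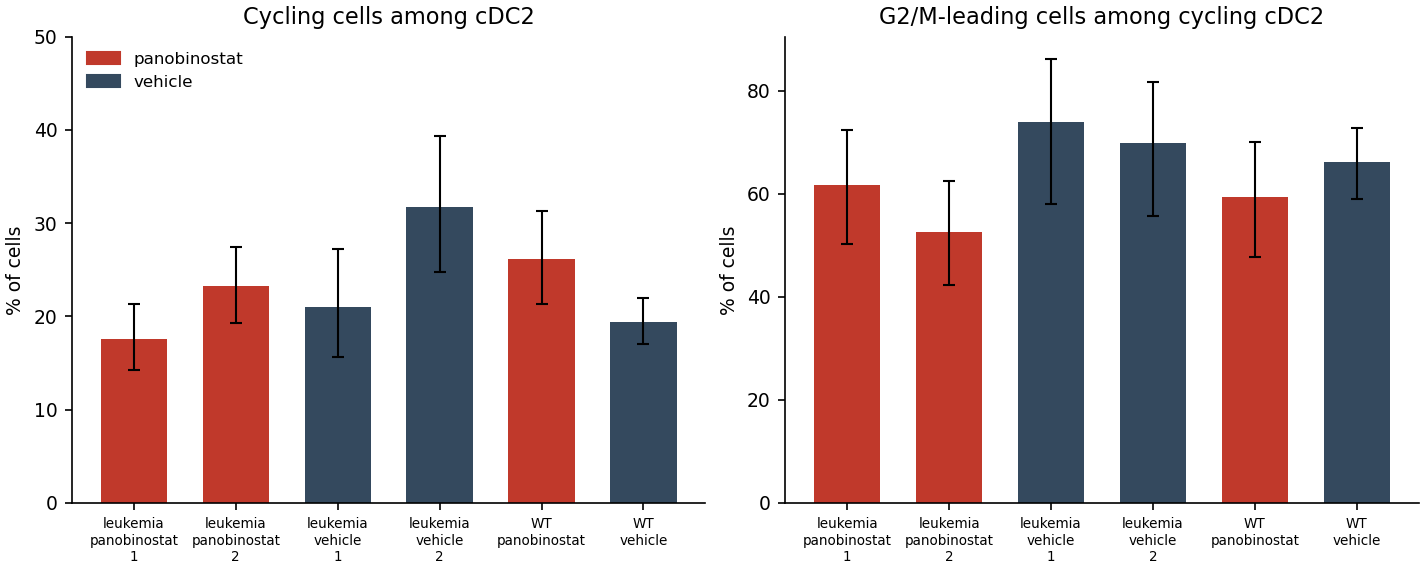
Percent of cDC2 that were cycling and percent of cycling cDC2 that were G2/M-leading, by hashed sample; bars start at 0 and whiskers are 95% Clopper-Pearson intervals for counting error. The cycling share runs from 17.6 to 31.7% with no order by treatment, and the G2/M-leading share is 52.5 to 61.7% with panobinostat against 66.2 to 73.8% with vehicle.

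Panobinostat against vehicle was then compared gene by gene, with the UMIs of the cells summed per hashed sample and leukemia fitted as a second factor. In all 556 cycling cDC2 no gene passed an adjusted p of 0.05 (edgeR quasi-likelihood test, Benjamini-Hochberg; 0 of 7412 genes, 0% in either direction). At an unadjusted p under 0.05 there were 250 genes (3.37%), and DESeq2 called 1 gene, Atf3. The gene with the lowest p was Atf3, a stress-induced transcription factor at chr1:191170296-191218039 on the minus strand (GRCm38), with a log2 fold change of 0.94 ± 0.15 (SE; edgeR adjusted p = 0.0708). It was followed by Ifitm1 (chr7:140967221-140969825, plus strand), with 1.26 ± 0.225 (edgeR adjusted p = 0.156), and, lower, by the histone H2A gene Hist1h2ae (chr13:23570517-23571220, minus strand), with -0.51 ± 0.11 (edgeR adjusted p = 0.376).

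In the 455 cells without progenitor markers, 19 genes were higher with panobinostat (0.299% of 6364 tested) and 3 were lower (0.0471%), by the same edgeR test; 461 genes (7.24%) had an unadjusted p under 0.05. The common biological coefficient of variation, fitted over all genes, was 7.75% in these cells against 11.3% in the 556. The SE of the called genes did not always fall with it. For Atf3 the SE was 0.1511 in the 455 against 0.1475 in the 556, and for Nr4a2 0.2514 against 0.2383. For Ifitm1 it was 0.1535 against 0.225, and for Apoe 0.1644 against 0.1943. What led to the added calls was not tested. The 19 held 5 mitochondrial genes and 3 ribosomal protein genes, and the summed mitochondrial UMIs were 2.21, 2.47 and 2.85% of all with panobinostat against 2.05, 2.0002 and 2.39% with vehicle. DESeq2 on the same 455 cells called none of the 19 and 1 lower gene, Hist1h2ae. Without leukemia panobinostat 1 no gene was called in either direction, with Atf3, Ifitm1 and Hist1h2ae each at an edgeR adjusted p of 0.0513. The counts of higher genes without leukemia panobinostat 2, leukemia vehicle 1, leukemia vehicle 2, WT panobinostat and WT vehicle were 7, 11, 3, 58 and 62, and 18 genes were lower without either WT sample.

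Of 19 genes on the immediate early and stress list, 5 rose (Atf3, Ier3, Fos, Dusp1 and Dusp2) and none fell. Of the 19, 15 had a positive fold change, and the list's median was 0.22 against -0.0022 for all genes. Summed without progenitor-marker cells, the list stood at 8613, 10006 and 11071 CPM with panobinostat and at 8927, 7036 and 10606 CPM with vehicle. The groups overlapped, with both leukemia panobinostat samples under WT vehicle and leukemia panobinostat 1 also under leukemia vehicle 1. Among all 556 cells none of the 19 passed and the median was 0.20. Atf3 stood at 306, 329 and 397 CPM with panobinostat and at 157, 83.6 and 283 CPM with vehicle, with no overlap (log2 fold change 1.03 ± 0.15, edgeR adjusted p = 2.67e-05), and it was called in 5 of 6 fits that each left out 1 sample, with fold changes of 0.71 without leukemia vehicle 2 to 1.54 without WT panobinostat. Nr4a2, an orphan nuclear receptor (chr2:57106830-57124003, minus strand), stood at 53.5, 112 and 65.9 CPM with panobinostat and at 38.4, 19.8 and 34.4 CPM with vehicle (1.30 ± 0.25, edgeR adjusted p = 0.00238). Ier3, an early response gene that restrains apoptosis (chr17:35821684-35822923, plus strand), stood at 55.0, 55.8 and 100.3 CPM with panobinostat and at 27.9, 30.8 and 42.6 CPM with vehicle (1.14 ± 0.22, edgeR adjusted p = 0.00238). Neither gene's treatments overlapped, and each was called in 3 of 6 such fits.

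Fos, a subunit of the AP-1 transcription factor (chr12:85473890-85477273, plus strand), stood at 1334, 1849 and 1634 CPM with panobinostat and at 1320, 867 and 1346 CPM with vehicle (0.50 ± 0.096, edgeR adjusted p = 0.00238). Leukemia panobinostat 1 lay just under WT vehicle, and the fold change was 0.31 to 0.64 with 1 sample left out, lowest without leukemia vehicle 2. Dusp1 and Dusp2, phosphatases that switch off MAP kinases, rose by log2 fold changes of 0.51 ± 0.12 and 0.68 ± 0.17 (edgeR adjusted p = 0.0426 each). Dusp1 stood at 434, 551 and 453 CPM with panobinostat and at 342, 260 and 433 CPM with vehicle. Dusp2 stood at 147, 106 and 210.1 CPM with panobinostat and at 101, 96.8 and 109 CPM with vehicle. The groups did not overlap for Dusp1 and overlapped for Dusp2, where leukemia panobinostat 2 lay below WT vehicle. With 1 sample left out, Dusp1 was called in 2 of 6 fits (0.30 without leukemia vehicle 2 to 0.80 without WT panobinostat) and Dusp2 in 1 of 6 (0.41 without WT vehicle to 0.82 without leukemia panobinostat 2).

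Ifitm1 was the second gene by p. It stood at 377, 374 and 571 CPM with panobinostat and at 353, 136 and 214 CPM with vehicle (1.06 ± 0.15, edgeR adjusted p = 2.67e-05). The groups did not overlap, although leukemia vehicle 1 came close to the leukemia panobinostat samples. Its UMIs were spread over 21 to 80 cells in each sample of the 556. None of 24 interferon-stimulated genes tested passed the threshold, 6 had an unadjusted p under 0.05, and the list's median was 0.15. Apoe, a lipid carrier, stood at 155, 131 and 205 CPM with panobinostat and at 52.4, 74.8 and 120.3 CPM with vehicle (0.97 ± 0.16, edgeR adjusted p = 3.12e-04), and Ccrl2, an atypical receptor for chemerin, at 92.1, 116 and 143 CPM with panobinostat and at 73.3, 55.0 and 79.2 CPM with vehicle (0.83 ± 0.18, edgeR adjusted p = 0.0121). Neither overlapped between treatments. With 1 sample left out, Apoe was called in 5 of 6 fits and Ccrl2 in 1 of 6.

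Pf4, a platelet chemokine, had the largest fold change, 3.92 ± 0.60 (edgeR adjusted p = 3.69e-05). Its levels were 713, 69.4 and 7.84 CPM with panobinostat and 10.5, 0 and 12.7 CPM with vehicle, and 478 of its 481 UMIs in leukemia panobinostat 1 came from 1 cell. WT panobinostat lay below both leukemia vehicle 1 and WT vehicle, and the fold change was 2.79 and no longer called without leukemia vehicle 2, and 6.56 without WT panobinostat.

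All 3 genes that fell with panobinostat were replication-dependent histones on chromosome 13. Hist1h2ae stood at 508, 454 and 348 CPM with panobinostat and at 855, 779 and 499 CPM with vehicle (-0.64 ± 0.10, edgeR adjusted p = 6.22e-05; called in 5 of 6 fits that left out a sample). Leukemia panobinostat 1 lay just over WT vehicle. Hist1h2ab (chr13:23751126-23751598, plus strand) stood at 63.9, 68.0 and 48.6 CPM with panobinostat and at 129, 119 and 95.7 CPM with vehicle, with no overlap (-0.88 ± 0.18, edgeR adjusted p = 0.00614). Hist1h3c (chr13:23744973-23745602, minus strand) stood at 63.9, 88.4 and 37.6 CPM with panobinostat and at 133, 110.0 and 85.2 CPM with vehicle (-0.76 ± 0.19, edgeR adjusted p = 0.0498), and was called in 1 of 6 such fits.

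Over the histone list, 3 of 21 genes tested fell, none rose and 17 had a negative fold change, with a median of -0.35. Summed, the list stood at 6005, 5960 and 5177 CPM with panobinostat and at 7859, 6840 and 6218 CPM with vehicle, and the groups did not overlap. In all 556 cells none of 23 passed, the median was -0.27, and the sums were 5609.5, 5177.3 and 4877.7 CPM with panobinostat and 6374.7, 6477.5 and 5440.3 CPM with vehicle, with leukemia panobinostat 1 over WT vehicle. The mitosis and G2/M list had a median of -0.19 with 50 of 58 genes negative and the S phase list one of 0.13 with 36 of 49 positive, and no gene of either passed the threshold. Summed G2/M genes stood at 11528, 10408 and 9707 CPM with panobinostat and at 13787, 14060 and 10299 CPM with vehicle, with both leukemia panobinostat samples over WT vehicle. The share of G2/M-leading cells, given above, was lower in the same panobinostat samples, and its part in the histone levels was not tested.

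Other groups showed no call. The list of genes known to rise with deacetylase inhibition had a median of 0.24, with 12 of 14 positive, none past the threshold and 5 at an unadjusted p under 0.05. Medians of the MHC class II and class I lists were -0.09 and 0.04, of the DC transcription factors 0.03, of the growth factor receptors -0.23 and of the deacetylases themselves -0.04. The 5 label genes had a median of -0.04.

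**Figure D4:**
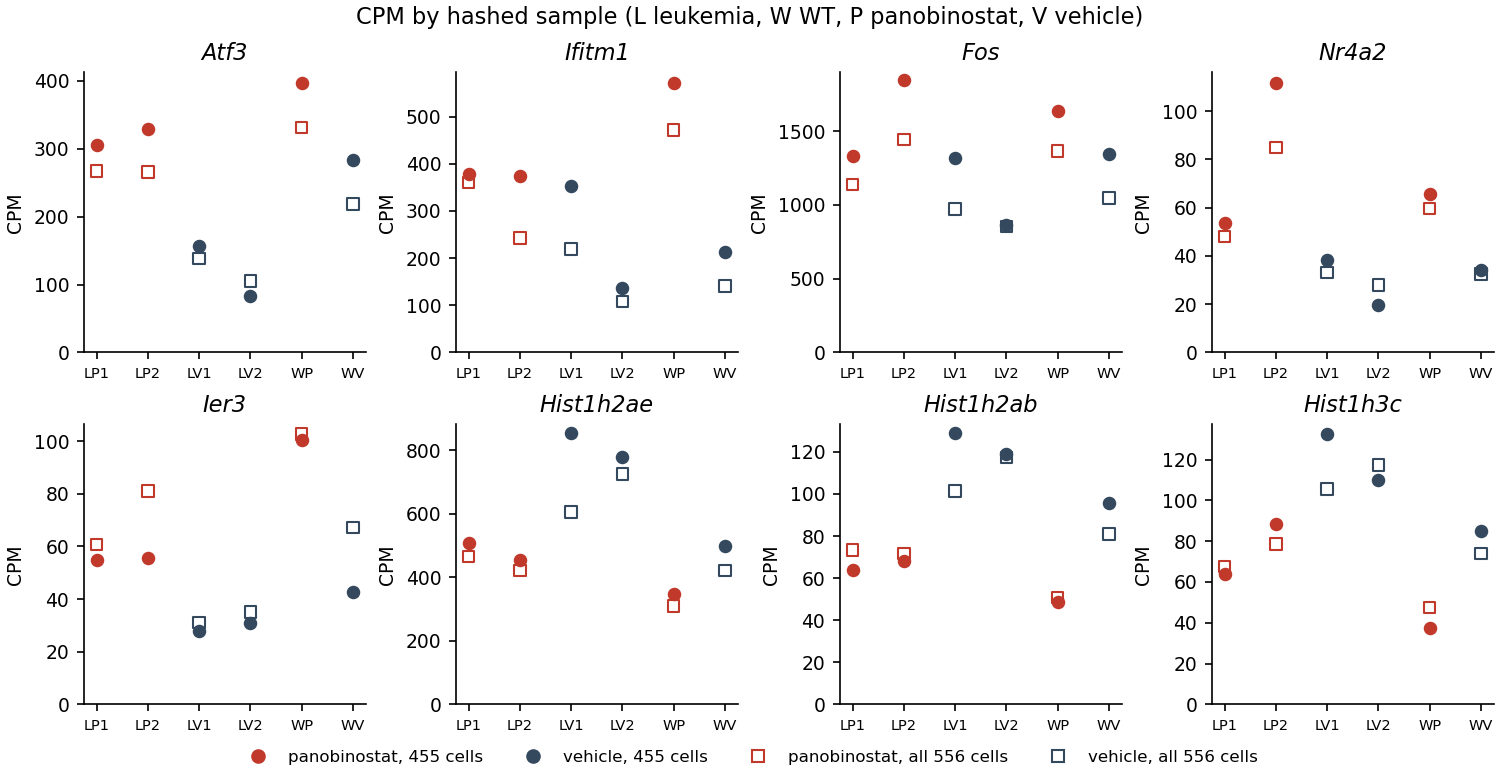
CPM of 8 genes in each hashed sample of cycling cDC2, with panobinostat left of vehicle within leukemia and within WT; filled points are the 455 cells without progenitor markers and open squares all 556. Atf3, Ifitm1, Nr4a2 and Ier3 lie higher in every panobinostat sample of the 455 cells and Hist1h2ab lower, while Fos, Hist1h2ae and Hist1h3c overlap by 1 sample.

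In the non-cycling cDC2 of the same 6 samples Atf3, Ifitm1, Nr4a2, Ier3, Fos and Hist1h2ae had changes of the same sign, and Pf4 one of the other sign. Without progenitor-marker cells, the log2 fold change of Atf3 was 1.03 in cycling and 0.91 in non-cycling cDC2, that of Ifitm1 1.06 and 1.15, of Nr4a2 1.30 and 0.91, of Ier3 1.14 and 0.58 and of Fos 0.50 and 0.45. Hist1h2ae had -0.64 in cycling and -0.21 in non-cycling cDC2 (edgeR adjusted p = 0.785 in the non-cycling cells), while Hist1h2ab and Hist1h3c had too few UMIs there to be tested. In the non-cycling cells the edgeR adjusted p was 1.19e-06 for Atf3, 2.0e-12 for Ifitm1 and 3.75e-04 for Nr4a2. It was 0.00691 for Ier3 and 4.3e-04 for Fos. Pf4 had 3.92 in cycling and -0.90 in non-cycling cDC2. The difference itself was tested in 1 fit over 12 sums. In all cells no gene's panobinostat effect differed between the states (edgeR, 0 of 8395, 0%; 337 genes or 4.01% at an unadjusted p under 0.05; 0 by DESeq2). Without the progenitor-marker cells 6 of 7383 differed, 4 in the positive direction (0.0542%) and 2 in the negative (0.0271%), with 394 (5.34%) at an unadjusted p under 0.05 and 0 by DESeq2; none of the genes above but Pf4 was among them.

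Tuba1b and Ccl5 were well expressed among the 6. Tuba1b, an alpha-tubulin, stood at 1702, 1743 and 1438 CPM with panobinostat and 1861, 1692 and 1712 CPM with vehicle in cycling cDC2. In non-cycling cDC2 it stood at 213, 210 and 198 CPM with panobinostat and 187, 176 and 157 CPM with vehicle, above every vehicle sample (difference of log2 fold changes -0.44, edgeR adjusted p = 0.0205). Ccl5 overlapped between treatments in cycling cDC2, at 339, 200 and 193 CPM with panobinostat and 213, 176 and 247 CPM with vehicle, and also in non-cycling cDC2, at 701, 549 and 439 CPM with panobinostat and 901, 517 and 1100 CPM with vehicle (difference 0.72, edgeR adjusted p = 1.92e-04). The other 4 were Ighm, Igfbp7, Pf4 and Cst3, and all 6 were named after their values were seen. Without leukemia panobinostat 1, leukemia panobinostat 2, leukemia vehicle 1, WT panobinostat and WT vehicle, the 6 became 2, 10, 3, 2 and 2 genes.

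Leukemia against WT was read from the other coefficient of the same fit, with 4 leukemia and 2 WT samples. In all 556 cells no gene passed (edgeR, 0 of 7412, 0%; 283 genes or 3.82% at an unadjusted p under 0.05; 0 by DESeq2). In the 455 cells 9 genes were higher in leukemia (0.141% of 6364) and 19 lower (0.299%), with 452 (7.1%) at an unadjusted p under 0.05 and 0 by DESeq2. The 19 held 6 mitochondrial genes, beside a mitochondrial share of the summed UMIs of 2.21, 2.47, 2.05 and 2.0002% in leukemia and 2.85 and 2.39% in WT. Outside predicted loci and mitochondrial genes, Fam71a had the largest fall (-1.36 ± 0.28, edgeR adjusted p = 0.0034), with no overlap. Its fold change was -1.76 to -1.15 with 1 sample left out, and it was called in 3 of 6 such fits. Pf4 had the largest rise (3.42 ± 0.64, edgeR adjusted p = 0.00183), with overlap, and -2.06 in non-cycling cDC2. In leukemia panobinostat 1, 1 cell held 478 of its 481 UMIs. Without leukemia panobinostat 1 the counts were 0 higher and 1 lower, Ccl3. The count of higher genes was 16 without leukemia panobinostat 2, 2 without leukemia vehicle 2, 26 without WT panobinostat and 2 without WT vehicle, and that of lower genes 8 without leukemia vehicle 2.

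The heat shock genes Hspa1a, Hspa1b and Dnajb1 fell in leukemia in this fit, which takes 1 leukemia effect for both treatments. For Hspa1a and Hspa1b the panobinostat effect itself differed between leukemia and WT, as given below, so 1 value describes them in part. Hspa1a, the inducible Hsp70 (chr17:34969190-34972156, minus strand), stood at 385, 503, 834 and 806 CPM in leukemia and at 1485 and 991 CPM in WT (-1.06 ± 0.13, edgeR adjusted p = 6.56e-07), with no overlap. Its near-identical neighbour Hspa1b stood at 186, 268, 318 and 484 CPM in leukemia and 638 and 484 CPM in WT (-0.89 ± 0.15, edgeR adjusted p = 4.39e-04). The Hspa1b groups overlapped, at leukemia vehicle 2 and WT vehicle, and reads of the pair may be split between the 2 genes. Dnajb1, a co-chaperone of Hsp70, stood at 143, 136, 157 and 147 CPM in leukemia and at 268 and 176 CPM in WT (-0.62 ± 0.15, edgeR adjusted p = 0.0280). Without WT panobinostat the fold changes were -0.32 for Hspa1a, -0.28 for Hspa1b and -0.26 for Dnajb1, none of them called, and without WT vehicle they were -1.75, -1.50 and -0.96. The calls of Hspa1a and Hspa1b were also lost without leukemia panobinostat 1, and Dnajb1 was called in 2 of 6 such fits. Within leukemia, Hspa1a was lower in both panobinostat samples than in both vehicle samples. In non-cycling cDC2 without progenitor-marker cells, leukemia over WT was -1.16 for Hspa1a, -1.03 for Hspa1b and -1.23 for Dnajb1. Their edgeR adjusted p there were 3.84e-08, 8.38e-07 and 3.48e-08, so the falls were not particular to cycling cells.

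Ccl3, a chemokine that draws monocytes and T cells, stood at 92.1, 66.7, 59.4 and 50.6 CPM in leukemia and at 155 and 117 CPM in WT (-1.05 ± 0.18, edgeR adjusted p = 4.39e-04), and was called in 6 of 6 fits that left out a sample. Atf3 (-0.75 ± 0.15, edgeR adjusted p = 0.00325), Nr4a1 (-0.68 ± 0.17, 0.0331) and the AP-1 subunits Jund (-0.47 ± 0.11, 0.0288) and Jun (-0.33 ± 0.081, 0.0392) also fell. The groups overlapped for Atf3, Nr4a1 and Jun. Without WT vehicle Atf3 had -0.33 and Nr4a1 -0.14, neither of them called, and without WT panobinostat they had -1.35 and -1.36; over the 6 fits that left out a sample, Atf3 was called in 3 and Nr4a1, Jund and Jun in 2 each. Over the immediate early list 6 of 19 genes fell, none rose and 17 were negative, with a median of -0.28 against 0.0055 for all genes; in all 556 cells none passed and the median was -0.17. Summed, the list stood at 8613, 10006, 8927 and 7036 CPM in leukemia and 11071 and 10606 CPM in WT, with no overlap. Errfi1, a feedback inhibitor of the EGF receptor, fell by 1.33 on the log2 scale and Bhlhe40, a transcription factor, by 0.65 (edgeR adjusted p = 0.0280 each). The Bhlhe40 call was lost in each of the 6 fits that left out a sample, and Errfi1 was called in 1 of the 6. Apoe fell by 0.68 (edgeR adjusted p = 0.0280), its groups overlapped, and it was called in 1 of the 6 such fits. In non-cycling cDC2 without progenitor-marker cells Fam71a, Ccl3 and Apoe had -1.18, -0.71 and -0.55 (edgeR adjusted p = 2.32e-05, 2.6e-04 and 0.00182). Atf3, Nr4a1, Jund, Jun, Errfi1 and Bhlhe40 were negative there and not called.

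Of the 9 genes higher in leukemia, Tubb4b, Ube2c and Cenpf belong to the G2/M list and Ifi27l2a to the interferon-stimulated list. Ifi27l2a (chr12:103442167-103443680, minus strand) stood at 434, 327, 548 and 625 CPM in leukemia and at 353 and 181 CPM in WT (0.86 ± 0.16, edgeR adjusted p = 0.00197), with leukemia panobinostat 2 below WT panobinostat. Its fold change was 0.090 and not called without WT vehicle, and 1.66 without WT panobinostat; the call was also lost without leukemia panobinostat 1 or leukemia vehicle 2. Tubb4b, a beta-tubulin, stood at 359, 331, 475 and 475 CPM in leukemia and at 245 and 246 CPM in WT (0.72 ± 0.12, edgeR adjusted p = 5.58e-04). Ube2c, the ubiquitin-conjugating enzyme of the anaphase-promoting complex, stood at 493, 452, 604 and 889 CPM in leukemia and at 389 and 385 CPM in WT (0.62 ± 0.12, edgeR adjusted p = 0.00325). Tubb4b and Ube2c were higher in every leukemia sample than in either WT sample. Ube2n (0.70 ± 0.18, edgeR adjusted p = 0.0480) and Dynll1 (0.49 ± 0.11, edgeR adjusted p = 0.0149) also rose, with no overlap. With 1 sample left out, Ube2n was called in 1 of 6 fits and Dynll1 in 2 of 6. In non-cycling cDC2 without progenitor-marker cells Ifi27l2a had 0.57 (edgeR adjusted p = 0.00354). Tubb4b, Ube2c, Ube2n and Dynll1 were positive there and not called.

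Cenpf, a kinetochore protein, stood at 241, 218, 279 and 352 CPM in leukemia and at 198 and 164 CPM in WT (0.58 ± 0.14, edgeR adjusted p = 0.0367), and Anxa2, a membrane-binding annexin, at 198, 184, 269 and 339 CPM in leukemia and 129 and 160.0 CPM in WT (0.76 ± 0.14, edgeR adjusted p = 0.00183). Neither overlapped. Without WT vehicle the fold changes were 0.48 for Tubb4b, 0.27 for Ube2c, 0.20 for Cenpf and 0.55 for Anxa2, none of them called, and without WT panobinostat they were 0.91, 0.94, 0.92 and 0.91. The 4 calls were also lost without leukemia panobinostat 1, and those of Ube2c, Cenpf and Anxa2 without leukemia vehicle 2. Of 58 mitosis and G2/M genes 3 rose, none fell and 55 were positive, with a median of 0.30, while the S phase list had a median of -0.18 with 41 of 49 negative and no call. Of 21 histone genes, Hist1h2ae rose (0.57 ± 0.11, edgeR adjusted p = 0.00183), none fell and 20 were positive, with a median of 0.31. In non-cycling cDC2 without progenitor-marker cells Hist1h2ae had the other sign, at -0.41 (edgeR adjusted p = 0.472). With all 556 cells no gene of these lists passed, and the medians were 0.22 for G2/M, -0.045 for S phase and 0.24 for histone genes. Summed G2/M genes stood at 11528, 10408, 13787 and 14060 CPM in leukemia and at 9707 and 10299 CPM in WT. The lowest leukemia value was close to the highest WT value, and both lowest leukemia values were panobinostat samples.

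**Figure D5:**
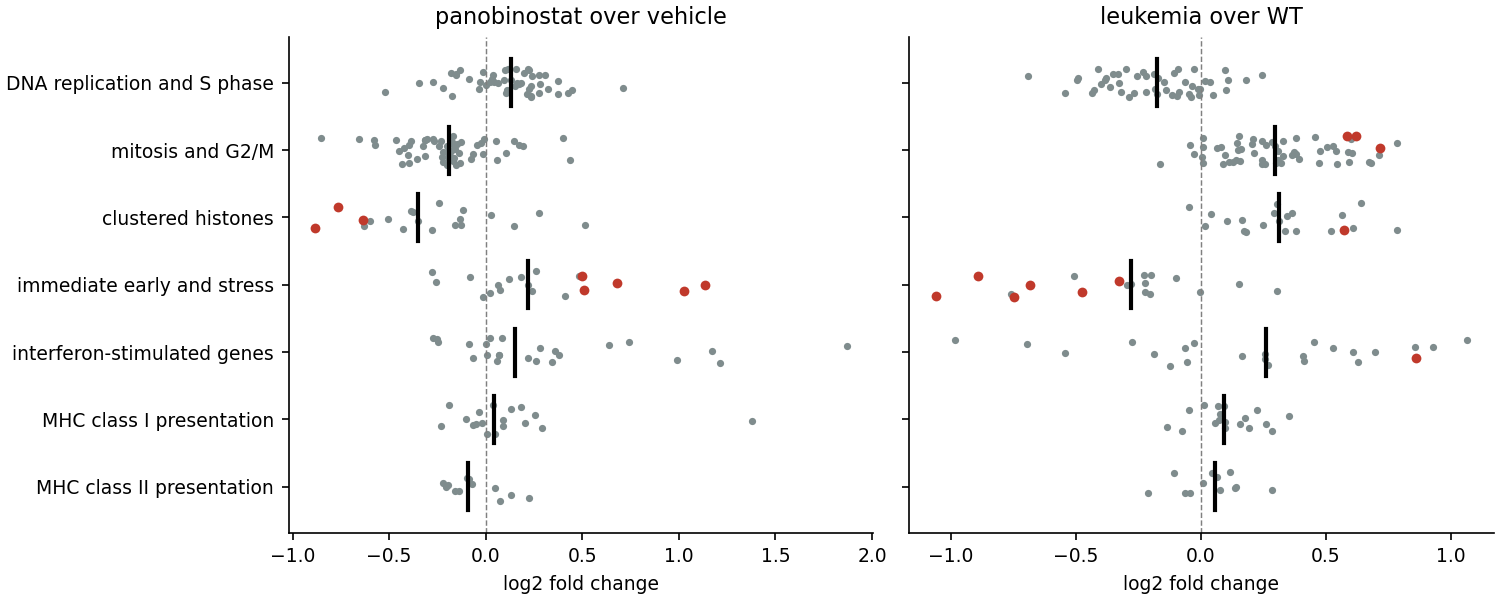
Log2 fold changes of the genes of each list in the 455 cells, panobinostat over vehicle and leukemia over WT; each point is 1 gene, a black bar is the list's median and red points passed an adjusted p of 0.05. Histone and G2/M medians are -0.35 and -0.19 for panobinostat and 0.31 and 0.30 for leukemia, and immediate early medians 0.22 and -0.28.

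Whether panobinostat acted differently in leukemia and WT was tested as an interaction, with 1 sample per treatment in WT. In all 556 cells 2 of 8065 genes passed, both more negative in leukemia (0.0248%; none more positive, 0%): Hspa1a (-1.50, edgeR adjusted p = 0.0344) and Hspb1 (-9.78, edgeR adjusted p = 0.0280). At an unadjusted p under 0.05 there were 310 genes (3.84%), and DESeq2 called the same 2. Hspa1a in the 455 cells stood at 385 and 503 CPM with panobinostat and 834 and 806 CPM with vehicle in leukemia, and at 1485 CPM with panobinostat and 991 CPM with vehicle in WT, so the treatment went with lower levels in leukemia and a higher one in WT. Without leukemia vehicle 2, and likewise without the cells of the highest doublet scores, no gene passed in the 556.

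In the 455 cells 13 of 7109 genes passed, 5 more positive in leukemia (0.0703%) and 8 more negative (0.113%), with 394 (5.54%) at an unadjusted p under 0.05 and 3 by DESeq2 (Hspa1a, Hspb1 and Ifi27l2a). Ifi27l2a stood at 434 and 327 CPM with panobinostat and 548 and 625 CPM with vehicle in leukemia, and at 353 CPM with panobinostat and 181 CPM with vehicle in WT (difference of log2 fold changes -1.57). Nr4a1 went the other way, with 189 and 237 CPM under panobinostat and 140 and 79.2 CPM under vehicle in leukemia, and 232 CPM under panobinostat and 260.1 CPM under vehicle in WT (1.23). Egr1, an immediate early transcription factor, stood at 466 and 575 CPM with panobinostat and 426 and 293 CPM with vehicle in leukemia, and at 373 CPM with panobinostat and 472 CPM with vehicle in WT (0.94). Without leukemia panobinostat 1, leukemia panobinostat 2, leukemia vehicle 1 and leukemia vehicle 2, the 13 became 5, 7, 29 and 7 genes. Each WT value is a single sample, so no spread can be measured in WT. The fit takes the spread from the leukemia samples and draws each gene's value towards that of all genes. These calls therefore do not rest on the spread of each gene between samples alone.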

How the data were processed

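Gene RNA, antibody tags for CD11c and Siglec-H and 6 hashtags were counted in dendritic cells from mouse spleen, in 1 capture with 10x 3′ v3 chemistry. The authors deposited 1 table of counts: each value is a whole number of UMIs for a feature in a barcode, per the file headers. Cell Ranger 3.1.0 and Seurat 3.1.0 with the builds mm10 and GRCm38 are named in the submitters' processing notes, with no role or order; whether the authors filtered cells or removed doublets is not given in the sources used here. Features and barcodes were taken as deposited, and no barcode occurred more than once (0 shared).

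The members and gene lists (30 lists, 539 genes, 3 of them absent from the matrix) were chosen with earlier results of these data known. A hashed sample was read from the hashtag whose count was at least 5 times the next. Doublets between samples fail that ratio. A rewritten Scrublet-type score was computed besides, and cells in its top 10% (score of 0.1412 or more; 6.83% of members, 7.25% of single-hashtag barcodes, 14.6% of those failing the ratio) were kept in the main results and left out in an alternative. cDC1 were taken as the mirror image of the cDC2 rule, with 4 or more cDC1 marker UMIs and at most 1 of the cDC2 sum. Leaving out cells with 10 or more progenitor-marker UMIs was chosen after the data were seen; 1 gene of that list is not reported here by name.

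UMIs were summed per hashed sample and tested with edgeR 4.0.16 (quasi-likelihood, TMM, filterByExpr, Benjamini-Hochberg threshold 0.05; R 4.3.3, limma 3.58.1) on disease and treatment. The comparison of states added the hashed sample as a block, and the interaction of disease and treatment was fitted separately. An SE beside an edgeR fold change was worked back from the test, as the size of the log2 fold change over the square root of the F statistic. DESeq2 1.42.0 was an alternative. The fit of disease and treatment was tested on simulated data for the panobinostat coefficient; the other coefficients and the interactions were not simulated. Exact permutation tests used scipy 1.17.1, other steps numpy 2.4.6, pandas 2.3.3, scanpy 1.11.5 and Python 3.11.15. Ratios between cell sets needed 20 CPM or more and carry no test. Thinning was to 4000 UMIs with a fixed seed; 3 members were shallower. Named genes were the 10 largest changes in each direction past the threshold, leaving out predicted loci, mitochondrial and sex-linked genes; where fewer than 3 passed, those with the lowest p; and for ratios between cell sets, the largest among genes of 50 CPM or more. Genes of the lists and genes past an interaction threshold are named besides. Sample numbers of the leukemia samples were checked for pairing: the deviations of number 1 and number 2 correlated at -0.1594 over 7412 genes between the treatments, so the numbers were not taken as pairs. Positions come from GENCODE vM21 on GRCm38 (599 of 599 matched). Promoters come from RefSeq GRCm38.p6, with a match for 41 of 50 S phase, 51 of 60 G2/M and 1 of 23 histone genes.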

Additional observations from a re-analysis of the deposited data

Results flagged for a closer look

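In the 556 cycling cDC2 the panobinostat effect differed between leukemia and WT for 2 genes by the edgeR interaction test. Hspa1a, the inducible Hsp70, had a difference of log2 fold changes of -1.50 (-1.43 in the 455 cells without progenitor markers). Hspb1, a small heat shock protein, had -9.78 (-9.94 in the 455 cells). It had 0 UMIs in both leukemia panobinostat samples, 9 and 11 in leukemia vehicle 1 and 2, 29 in WT panobinostat and 14 in WT vehicle, and 20 of the 29 came from 1 cell; with 0 UMIs on 1 side the fitted value depends on the prior count and is no bound.

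In the 455 cells 11 further genes differed in the same test. Pf4 had a difference of 7.22, with 1 cell holding 478 of its 481 UMIs in leukemia panobinostat 1. Ifi27l2a had -1.57, Hspa1b -1.22, Nr4a1 1.23 and Egr1 0.94. Neat1, a long noncoding RNA of nuclear paraspeckles, had 0.97, with 428 and 513 CPM under panobinostat and 527 and 315 CPM under vehicle in leukemia, and 345 CPM under panobinostat and 570 CPM under vehicle in WT. Cdc20, the activator of the anaphase-promoting complex, had -1.54, with 89.1 and 58.5 CPM under panobinostat and 101 and 147 CPM under vehicle in leukemia, and 92.5 CPM under panobinostat and 54.6 CPM under vehicle in WT. Plac8 had -0.70, with 642 and 683 CPM under panobinostat and 772 and 990 CPM under vehicle in leukemia, and 864 CPM under panobinostat and 700 CPM under vehicle in WT. Ehmt1, a histone H3 lysine methyltransferase, had -2.20, Agpat4, an acyltransferase of lipid synthesis, -2.49, and the ribosomal protein gene Rplp1 0.35. Each WT arm is 1 sample.

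Between cycling and non-cycling cDC2, 6 genes had a different panobinostat effect in the fit without progenitor-marker cells. The difference of log2 fold changes was 0.72 for Ccl5, -0.44 for Tuba1b and 3.34 for Pf4. Ighm, the heavy chain of IgM, had 1.17, with 163, 108 and 129 CPM under panobinostat and 112, 121 and 137 CPM under vehicle in cycling cDC2, and 140, 186 and 174 CPM under panobinostat and 177, 204 and 765 CPM under vehicle in non-cycling cDC2. The high value is that of WT vehicle, where B cell markers summed to 831 CPM in non-cycling cDC2, and their part in this difference was not tested. Igfbp7 had 4.56, and 16 of its 26 UMIs in WT panobinostat came from 1 cycling cell. Cst3, a cysteine protease inhibitor, had -0.34, with 2068, 1903 and 1878 CPM under panobinostat and 2444, 1789 and 2347 CPM under vehicle in cycling cDC2, and 2460, 2870 and 2849 CPM under panobinostat and 2312, 2137 and 2950 CPM under vehicle in non-cycling cDC2.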

How the results depend on the processing

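The count of genes called is the least stable result. In all 556 cells, 0 genes were higher with panobinostat: this became 1 with DESeq2, 29 with no filter on low counts, 2 with a hashtag ratio of 10, 1 with 6 or more proliferation UMIs, 5 with cells thinned to 4000 UMIs, 19 without progenitor-marker cells and 0 to 6 when 1 sample was left out. Of lower genes, 0 became 6 with no filter, 1 with thinning, 3 without progenitor-marker cells and 0 to 1 without 1 sample. For leukemia over WT, 0 higher genes became 10 with no filter, 9 without progenitor-marker cells and 0 to 2 without 1 sample, and 0 lower genes became 20 with no filter, 1 with 6 or more proliferation UMIs, 1 with thinning, 19 without progenitor-marker cells and 0 to 8 without 1 sample. The 0 genes that differed between states became 11 with no filter, 1 without top doublet scores, 6 without progenitor-marker cells and 0 to 3 without 1 sample. The 2 genes of the disease interaction became 12 with no filter, 0 without top doublet scores, 13 without progenitor-marker cells and 0 to 6 without 1 sample; without either WT sample it could not be estimated.

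In the 455 cells, the 19 genes higher with panobinostat became 0 with DESeq2, 40 with no filter, 31 with the limit at 5 progenitor-marker UMIs and 0 to 62 without 1 sample. The 3 lower genes became 1 with DESeq2, 7 with that limit at 5, 5 with it at 20 and 0 to 18 without 1 sample. The 9 genes higher in leukemia became 0 with DESeq2 and 0 to 26 without 1 sample. The 19 lower genes became 0 with DESeq2, 46 with no filter and 1 to 25 without 1 sample. The 6 genes that differed between states became 0 with DESeq2, 10 with no filter and 2 to 10 without 1 sample. The 13 of the disease interaction became 3 with DESeq2 and 5 to 29 without 1 sample. Leaving out a sample or cells also lowers the number of samples or genes tested; other causes were not tested.

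The sample numbers of the 2 leukemia groups were not taken as pairs. A replicate block on them gave 0 higher and 0 lower genes in the 556 cells and 9 higher and 2 lower in the 455. With the block crossed (number 1 with number 2), chosen after seeing the data because the pairing correlation was negative, 4 were higher in the 556 cells. With the block the cycling share had p = 0.75 and the G2/M-leading share p = 0.25, by permutation within blocks.

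The ratio of cycling shares reversed to 1.05 and 1.09 without leukemia panobinostat 1 or leukemia vehicle 2 (0.853 to 1.09 over the 6 samples left out). The G2/M-leading difference kept its sign at -14.1 to -9.43 points without 1 sample. CD11c in cycling over non-cycling cDC2 reversed to 0.804 per gene UMI, and lay at 1.35 to 1.42 without 1 sample, each with an exact permutation p of 0.0625, the smallest for 5 pairs. Siglec-H reversed to 0.606 per gene UMI and reached an exact permutation p of 0.03125 at 1.03 with 6 or more proliferation UMIs. Genes lower than in non-cycling cDC2 numbered 116, 47 with thinning, 46 without progenitor-marker cells and 121 to 201 without 1 sample; genes higher than in cycling cDC1 numbered 417, and 630 without progenitor-marker cells. Pf4 in leukemia over WT reversed to -1.64 without WT panobinostat and stood at 5.57 without WT vehicle. Of the other values of single genes, 571 kept their direction and side of the threshold, 212 lost the threshold and 49 reached it. The shallowest sums, 286437 UMIs in leukemia vehicle 1 of the 455 cells, limit genes of few UMIs, and counting intervals leave out the spread between animals.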
